A study of Mus musculus with 18 samples.

Results

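The 9 genes described here encode factors that brown adipocytes secrete: Vegfa, Vegfb, Nrg4, Fgf21, Bmp8b, Angptl4, Metrnl, Apln and Slit2. They were taken by symbol from a table of 54347 genes, in which each of the 9 symbols was found. Of these, 7 passed the filter on low counts together with 14949 genes in all, whereas Bmp8b and Slit2 did not.

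Brown adipose tissue burns lipid to produce heat, and it also releases signalling proteins, which have been named batokines. Some of them act on vessels and nerves of the tissue itself, so that blood flow and innervation follow the demand for heat, whereas others travel to the liver or elsewhere. Noradrenaline from sympathetic nerves is the natural trigger of heat production and acts through β-adrenergic receptors and cyclic AMP.

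RNA came from wt1-SAM cells, an immortalised mouse brown preadipocyte line that stably expresses the CRISPRa SAM machinery, which all groups share. The cells were differentiated into adipocytes in the presence of rosiglitazone, an agonist of PPARG. On day 4 they were reverse transfected with a locked nucleic acid antisense oligonucleotide (LNA), either the non-targeting ctrlA or LNA1 or LNA2, both directed against the long non-coding RNA Gm15551. They were harvested on day 7, unstimulated or after 24 h with 1 µM isoproterenol, a non-selective β-adrenergic agonist, which gave 6 groups of 3 libraries numbered 2, 3 and 4. All libraries come from 1 line, and since the labels do not say whether the numbers stand for separate cultures, the p-values measure the spread between these libraries.

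The 18 libraries held 9167560 to 19723021 counts, and 3 counts, taken as the floor of detection, corresponded to 0.170 to 0.306 CPM (counts scaled to library size with TMM factors). The 6 libraries numbered 2 stood apart: mitochondrial genes took 7.86 to 9.79% of their counts and CT010467.1, a gene of ribosomal RNA, another 2.88 to 14.3%, against 2.56 to 4.97% and 0.285 to 1.04% in the other 12. Gm15551 itself was counted 42 times in the 6 ctrlA libraries, 24 times with LNA1 and 27 times with LNA2, and it did not pass the filter. These sums join stimulated and unstimulated libraries and are not scaled to depth, and the deepest library (19723021 counts) was a ctrlA library. The difference in Gm15551 was not tested. The adipocyte markers (10 genes) summed to 17300 to 32100 CPM and the endothelial markers (7 genes) to 2.18 to 4.25 CPM. Ucp1, the uncoupling protein of brown fat, was at 1.12 ± 0.345 CPM (SD, n = 9) without and 12.8 ± 2.25 CPM (SD, n = 9) with isoproterenol, a rise of 3.51 on the log2 scale (SE 0.17, adjusted p = 1.12e-08, edgeR's quasi-likelihood test).

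The oligonucleotides are shown because every comparison between LNAs depends on what they pair with. Capitals mark bases complementary to the Gm15551 transcript.

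LNA1: GATGACTGAGATTAGA
LNA2: AAGTAGCACGGCGTTG
ctrlA: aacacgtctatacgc

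LNA1 pairs along its 16 bases with bases 347 to 362 of the 535-base transcript (GRCm38 chr3:126667502-126667517), and LNA2 with bases 241 to 256 (chr3:126667608-126667623). ctrlA has no run of 8 or more complementary bases in it. The longest run that any of the LNAs shares as complement with a transcript of the 9 genes was 10 bases, between LNA1 and Bmp8b, and 2.33% of 21877 annotated genes have a run as long with LNA1. For LNA1 with Nrg4, Angptl4 and Metrnl the run was 9 bases, which 8.92% of genes reach.

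The levels of the 9 genes spanned more than 4 orders of magnitude per length of transcript. Over all 18 libraries, Fgf21 had the highest mean at 121 CPM per kb of exon sequence (range 52.3 to 173), followed by Vegfa at 96.6 (68.3 to 132), Angptl4 at 86.9 (68.5 to 113) and Vegfb at 65.9 (36.3 to 91.2). The ranges of these neighbours overlap, so their order is not separated by the spread between libraries. Apln stood at 22.9 CPM per kb (15.0 to 32.3), below the lowest library of the preceding genes, and Nrg4 at 10.3 (7.67 to 13.1) and Metrnl at 10.2 (6.29 to 16.0) were level with each other. Fgf21 lay above 97.3% of the tested genes and Metrnl above 68.4%. Bmp8b (0.0297 CPM per kb) and Slit2 (0.00378 CPM per kb) were at the floor.

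**Figure D1:**
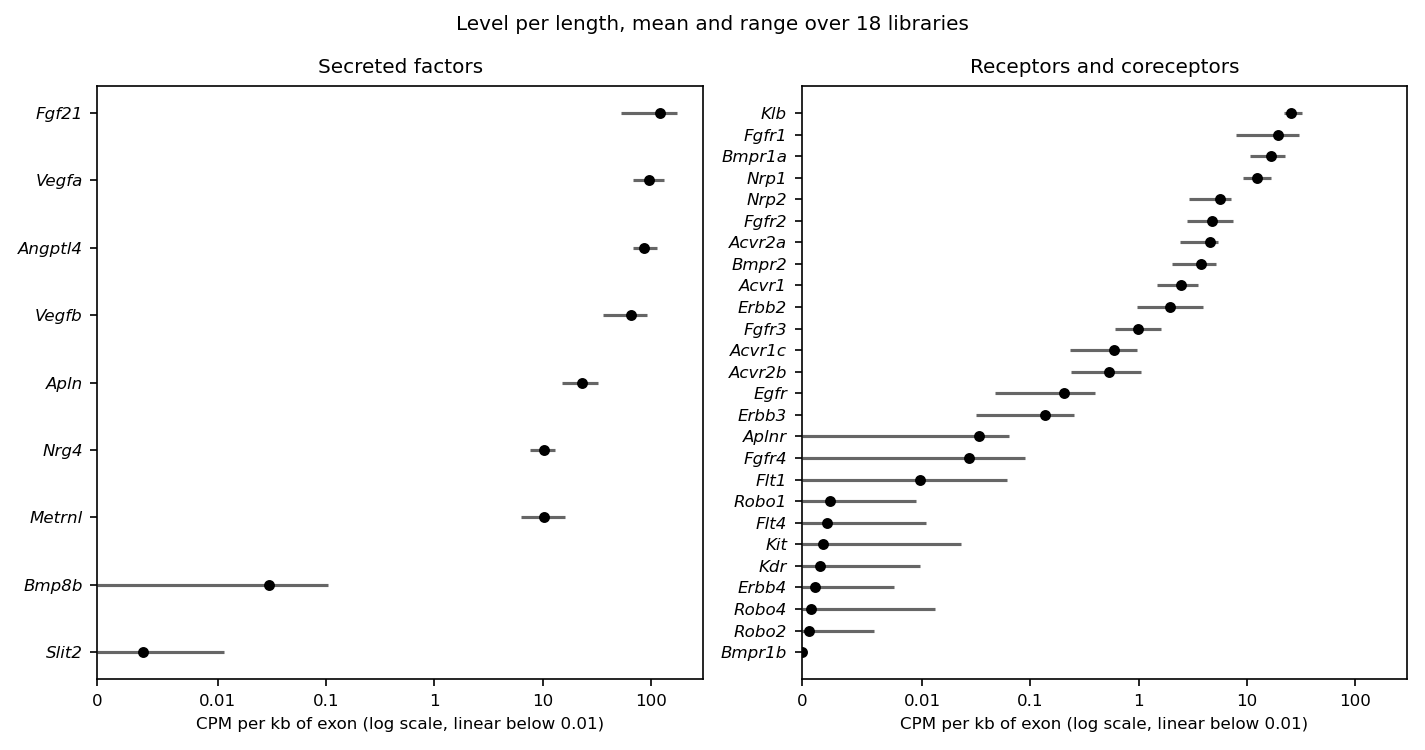
Levels of the 9 secreted factors and of receptors and coreceptors in CPM per kb of exon sequence, on a log axis that is linear below 0.01, with points for means and lines for the range over 18 libraries. Fgf21, Vegfa, Angptl4 and Vegfb lie above the other factors, and among the receptors Klb (mean 25.6) and Fgfr1 (mean 19.5) are the highest.

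Receptors for these factors were unevenly present in the same cells. For FGF21, the coreceptor Klb was at 25.6 CPM per kb and the receptor Fgfr1 at 19.5. For BMP8B, the type I receptor Bmpr1a was at 16.5 and Acvr1c at 0.586 CPM per kb. VEGFs signal through receptor tyrosine kinases of the endothelium, and Kdr reached at most 1 count and Flt1 at most 8 counts in any library, whereas the coreceptor Nrp1 was at 12.4 CPM per kb. Aplnr, the apelin receptor, had at most 3 counts per library and Erbb4, the receptor for NRG4, at most 1.

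The question put to stimulation was which factors changed after 24 h of isoproterenol, averaged over the 3 LNAs (9 libraries against 9). Metrnl rose 1.67-fold, and it was the only 1 of the 7 tested genes to pass both limits (adjusted p below 0.05 and an absolute log2 fold change above 0.5). The same limits were passed by 3.2% of all tested genes, 2.02% upwards and 1.18% downwards. At an unadjusted p below 0.05 there were 2 of the 7 genes, Metrnl and Apln, beside 15% of all genes. The median log2 fold change was -0.035 over the 7 genes and -0.0021 over all tested genes.

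Metrnl encodes meteorin-like, a hormone released by muscle and fat that has been tied to immune cells and browning of white fat. Unstimulated libraries 2, 3 and 4 had 10.8, 10.7 and 14.0 CPM with ctrlA, 10.8, 12.2 and 15.2 with LNA1, and 9.98, 10.9 and 14.3 with LNA2. After isoproterenol they had 17.0, 18.6 and 21.2 CPM with ctrlA, 18.3, 25.4 and 23.5 with LNA1, and 16.1, 22.9 and 19.0 with LNA2. Every stimulated library was above every unstimulated library, also across LNAs. Libraries of all 3 LNAs were separated in this way, LNA by LNA and upwards, for 219 genes (1.46%). The means were 12.1 ± 1.93 and 20.2 ± 3.18 CPM (SD, n = 9 each), and the log2 fold change was 0.74 (SE 0.12, 95% interval 0.49 to 0.98, adjusted p = 0.00115, edgeR). The ratio within matched libraries was 0.41 to 1.07 on the log2 scale and positive in 9 of 9 pairs. Without the 6 libraries numbered 3 the log2 fold change was 0.62 and the adjusted p of 0.226 no longer passed. Its mean log2 ratio was 0.71 within number 2, 0.98 within number 3 and 0.54 within number 4.

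**Figure D2:**
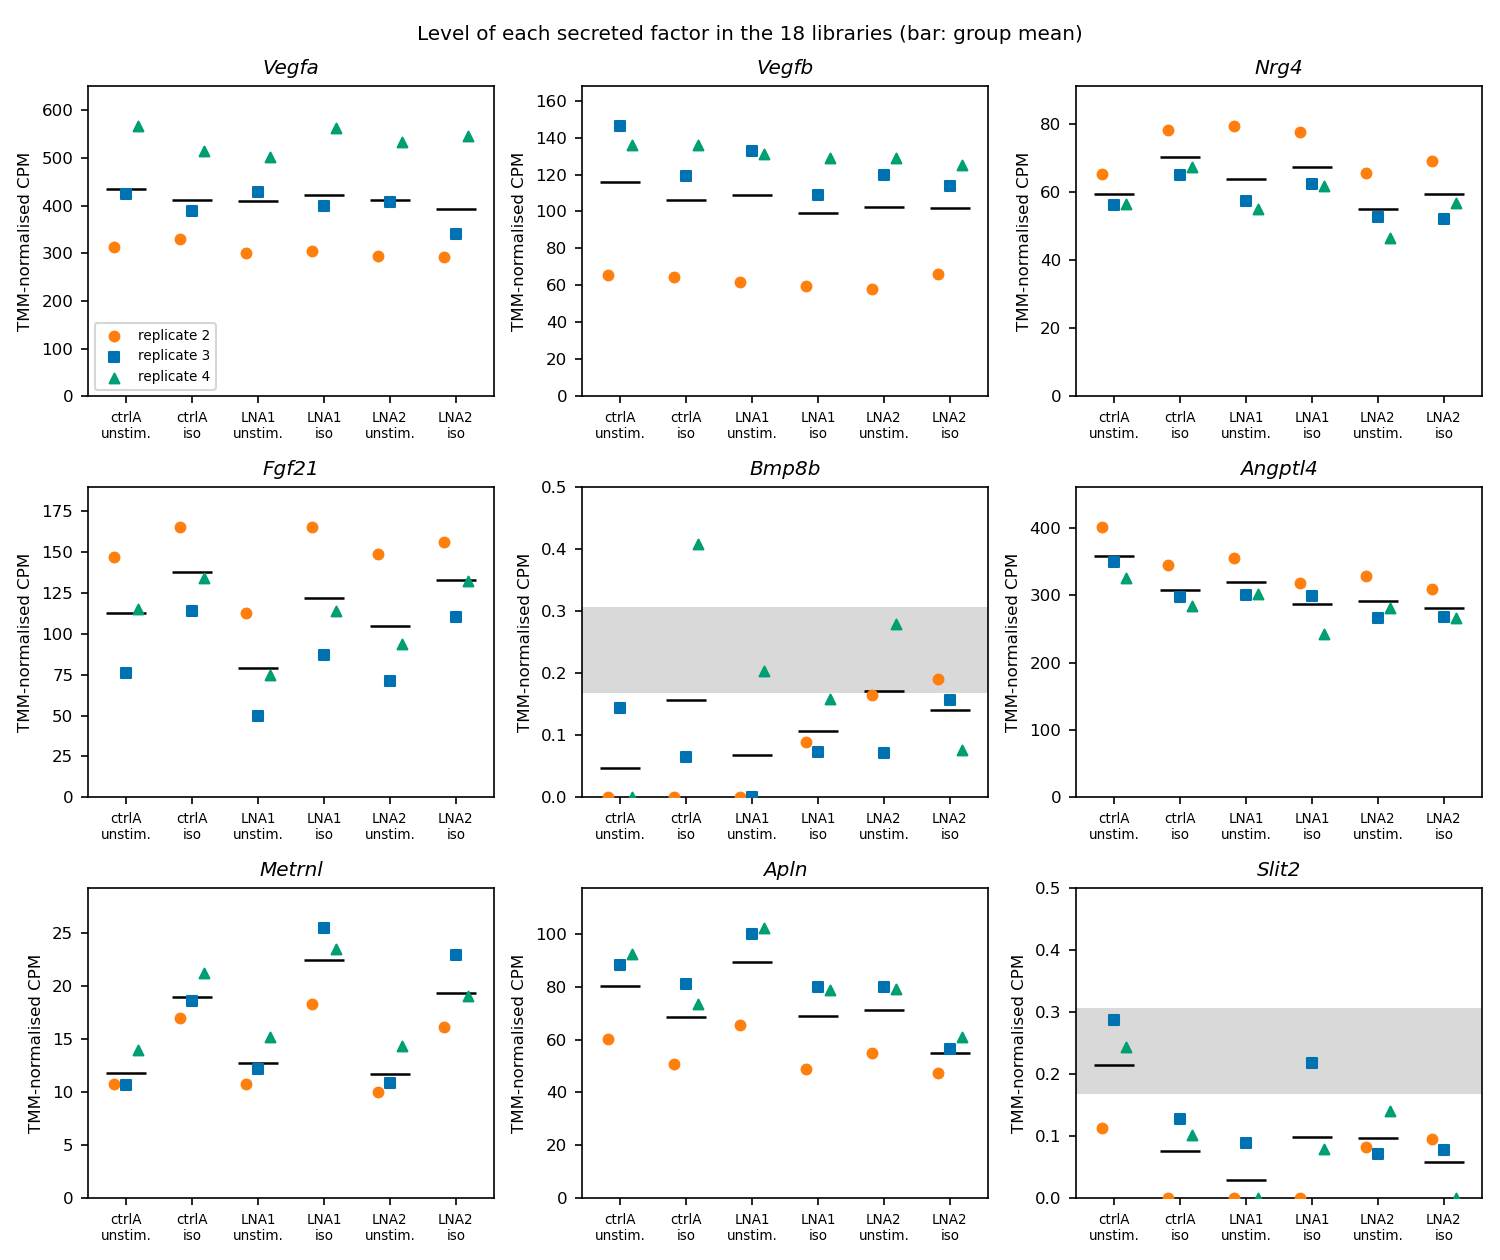
CPM of the 9 genes in each of the 18 libraries, by LNA and stimulation, with bars for group means, symbols for replicate numbers and, for Bmp8b and Slit2, a grey band for the floor of 3 counts over the libraries. For Metrnl the stimulated libraries (16.1 to 25.4 CPM) lie above the unstimulated libraries (9.98 to 15.2 CPM), while for the other genes the stimulated and unstimulated libraries overlap.

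Fgf21 encodes a hormone of the FGF19 subfamily that raises glucose use and energy expenditure. Its unstimulated libraries 2, 3 and 4 had 147, 75.9 and 115 CPM with ctrlA, 113, 49.8 and 74.8 with LNA1, and 149, 71.3 and 93.7 with LNA2. With isoproterenol the values were 165, 114 and 134 CPM, 165, 86.8 and 114, and 156, 110 and 132. The arms overlap widely because library 2 was highest and library 3 lowest in every group, yet within each number the stimulated library was higher in 9 of 9 pairs. How many of all tested genes have every pair in the same direction was not counted, here or for the LNA comparisons. Such pair counts therefore describe a gene without a background. Means were 98.8 ± 34.7 and 131 ± 27.1 CPM (SD, n = 9 each). The log2 fold change of 0.42 (SE 0.20, 95% interval -0.0044 to 0.84) had an adjusted p of 0.34 by edgeR. With the replicate number as a block it was 0.45 (adjusted p = 5.25e-05), which passed the limit on p and not that on size. Without the libraries numbered 2 it was 0.53 and passed both (adjusted p = 0.0346).

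Apln encodes apelin, a peptide that acts on endothelial cells. Its unstimulated libraries had 60.1, 88.1 and 92.4 CPM with ctrlA, 65.6, 100 and 102 with LNA1, and 54.8, 79.9 and 79.1 with LNA2. The stimulated libraries had 50.7, 80.9 and 73.5 CPM, 48.8, 79.7 and 78.7, and 47.2, 56.5 and 60.8. Each stimulated library was below its unstimulated partner of the same number and LNA, in 9 of 9 pairs, while the arms as a whole overlapped (80.2 ± 17.1 against 64.1 ± 14.1 CPM, SD, n = 9 each). The log2 fold change was -0.33 (SE 0.15, adjusted p = 0.302, edgeR), and -0.32 with the block (adjusted p = 4.51e-05), again inside the size limit.

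Nrg4, Angptl4, Vegfa and Vegfb did not pass either limit. Nrg4, an EGF-family ligand that acts on nerve endings and the liver, had 65.4, 56.3 and 56.5 CPM in unstimulated and 78.4, 65.0 and 67.4 in stimulated ctrlA libraries, 79.3, 57.5 and 55.0 and then 77.7, 62.4 and 61.9 with LNA1, and 65.7, 52.6 and 46.6 and then 69.3, 52.2 and 56.8 with LNA2. The arms of Nrg4 overlap, at 59.4 ± 9.51 CPM without and 65.7 ± 8.72 CPM with isoproterenol, with 7 of 9 pairs higher and a fitted log2 change of 0.14 (SE 0.10, adjusted p = 0.642, edgeR). Angptl4, an inhibitor of lipoprotein lipase, was at 323 ± 41.7 and 292 ± 30.8 CPM, lower in 8 of 9 pairs, with a fitted log2 change of -0.14 (SE 0.09, adjusted p = 0.531, edgeR). With the block the adjusted p was 0.0187 for Nrg4 and 0.0108 for Angptl4, and neither reached the size limit. In total 5 of the 7 genes then had an adjusted p below 0.05, beside 26.4% of all tested genes.

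The intervals of the vessel growth factors lay on both sides of 0. Vegfa, the main ligand of endothelial growth, was at 419 ± 102 CPM without and 409 ± 106 CPM with isoproterenol (SD, n = 9 each), and the 95% interval of its log2 fold change ran from -0.43 to 0.36. Vegfb, which binds FLT1 and has been linked to fatty acid uptake, was at 109 ± 35.9 and 102 ± 30.3 CPM, with an interval from -0.61 to 0.43. With the block the intervals narrowed to -0.13 to 0.057 for Vegfa and -0.17 to 0.019 for Vegfb.

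**Figure D3:**
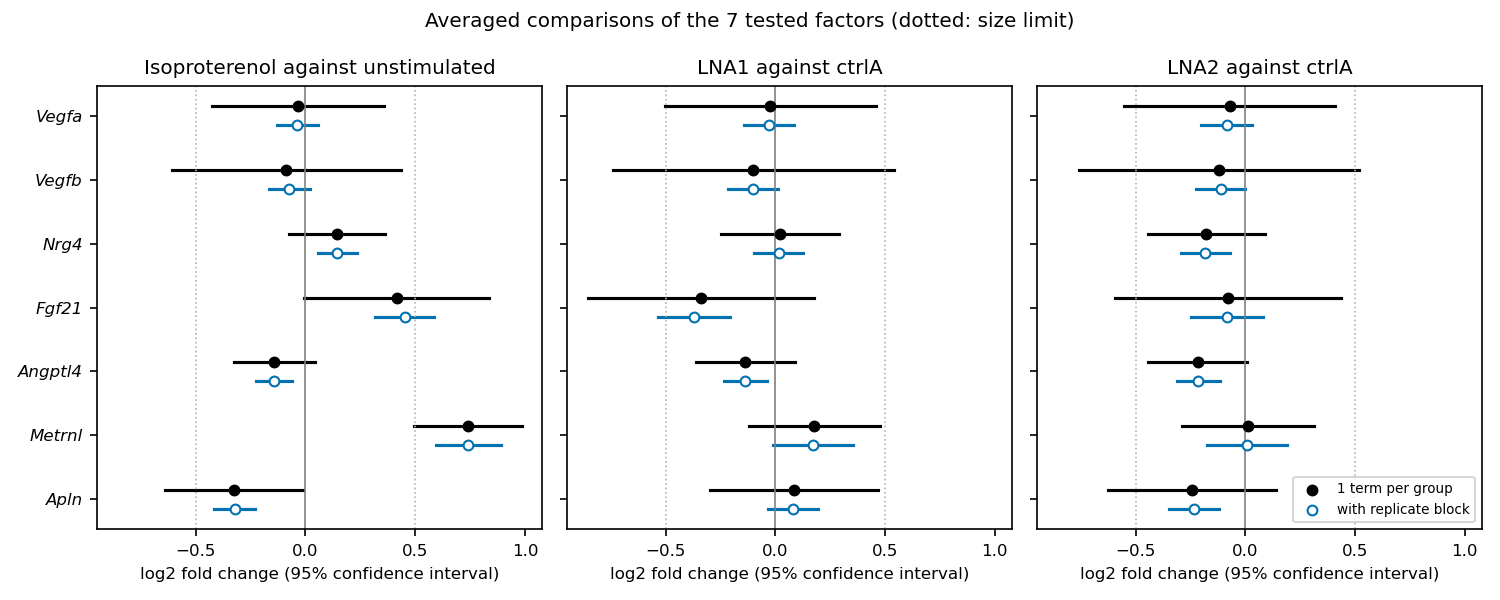
Log2 fold changes of the 7 tested genes with 95% intervals, for isoproterenol and for each of LNA1 and LNA2 against ctrlA, from the edgeR fit with and without the replicate number as a block. Under isoproterenol without the block, the interval of Metrnl (0.49 to 0.98) lies above 0 and that of Apln (-0.64 to -0.013) just below it, and the others include 0.

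Ordered by mean over the 6 groups, Metrnl had its stimulated groups in the first 3 places, with a gap between ctrlA with isoproterenol (18.9 CPM) and unstimulated LNA1 (12.7 CPM). Fgf21 had stimulated ctrlA, LNA2 and LNA1 at 138, 133 and 122 CPM before unstimulated ctrlA, LNA2 and LNA1 at 112, 105 and 79.3 CPM. Apln had unstimulated LNA1, ctrlA and LNA2 at 89.2, 80.2 and 71.3 CPM before stimulated LNA1, ctrlA and LNA2 at 69.1, 68.3 and 54.8 CPM. Apart from the gap of Metrnl, neighbours in the order overlapped in their libraries for each of the 7 tested genes.

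Within each LNA, 3 libraries against 3, none of the 7 genes passed. The share of all genes that passed was 0.488% with ctrlA, 0.702% with LNA1 and 0.395% with LNA2. These are 73, 105 and 59 genes, and without the unstimulated library 3 of the same LNA they were 43, 49 and 23. At an unadjusted p below 0.05 there was 1 of the 7 genes in each, Metrnl, beside 5.43%, 6.94% and 5.99% of all genes, and DESeq2 called 0, 1 and 1, beside 1.14%, 1.53% and 1.02% of all genes. The log2 change of Metrnl was 0.68 with ctrlA (SE 0.20, adjusted p = 0.262, edgeR), 0.82 with LNA1 (SE 0.20, adjusted p = 0.0941) and 0.72 with LNA2 (SE 0.20, adjusted p = 0.224). With the block it passed in each (adjusted p = 0.00183, 0.000299 and 0.00123), as did Fgf21 with LNA1 (0.64, adjusted p = 0.00124). Without the block Fgf21 with LNA1 was 0.62 and did not pass, and it was 0.96 without unstimulated library 2, 0.35 without stimulated library 2 and 0.37 without unstimulated library 3. The block raised the share of all genes that passed to 4.03%, 5.04% and 4.25%.

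**Figure D4:**
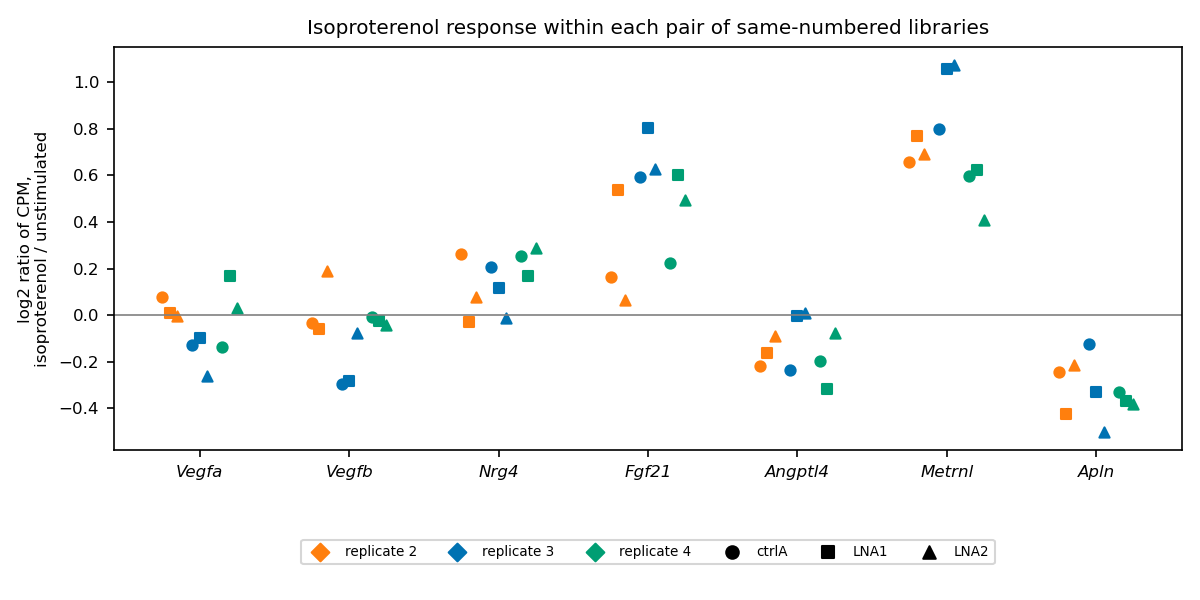
Log2 ratio of stimulated to unstimulated CPM for each matched pair of libraries (same LNA and number), 9 pairs per gene. All 9 pairs are above 0 for Metrnl and Fgf21 and all 9 below 0 for Apln, whereas Vegfa has 4 above and 5 below.

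Promoter sequences are shown for Metrnl and Fgf21, the genes with all pairs higher, because cyclic AMP and stress signals act on short DNA elements. RefSeq (GRCm38.p6) gave a start site for 8 of the 9 genes, and the 250 bases before it are printed 5′ to 3′ on the gene's strand, with matches to any searched motif in capitals.

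Metrnl: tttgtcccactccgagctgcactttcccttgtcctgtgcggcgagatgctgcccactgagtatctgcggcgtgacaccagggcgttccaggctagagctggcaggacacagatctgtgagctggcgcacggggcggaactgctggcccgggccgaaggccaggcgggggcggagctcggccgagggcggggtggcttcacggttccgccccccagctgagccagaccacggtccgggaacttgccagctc
Fgf21: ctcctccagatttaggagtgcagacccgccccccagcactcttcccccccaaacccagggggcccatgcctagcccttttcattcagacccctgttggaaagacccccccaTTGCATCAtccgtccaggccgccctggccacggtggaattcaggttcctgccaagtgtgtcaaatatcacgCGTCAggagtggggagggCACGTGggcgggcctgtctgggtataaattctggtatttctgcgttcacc

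The Metrnl window is chr11:121702177-121702426 on the plus strand and the Fgf21 window chr7:45615491-45615740 on the minus strand. Fgf21 has the same start in GENCODE, whereas the RefSeq start of Metrnl lies 883 bases downstream of its outermost GENCODE start and 16 bases from that of another transcript. The start of Nrg4 is likewise internal, 43219 bases downstream of the outermost and shared with a GENCODE transcript. The sequence before the outermost starts of Metrnl and Nrg4 was not used here. The letters searched on both strands were TGACGTCA (cyclic AMP response element), its core TGACG, which lies within the former, ACGTG (core of the hypoxia response element), TTGCATCA (core of the C/EBP-ATF response element that ATF4 binds) and the PPAR response element of the DR1 type. The Metrnl window held none of these letters. Fgf21 held TTGCATCA, which 0.791% of 32851 promoter windows hold, with its first base at -139 from the start site. It also held CGTCA, the reverse complement of TGACG, at -68 (17.8% of windows hold either strand) and ACGTG with its overlapping reverse complement at -50 and -49 (16.6%). Among the remaining genes, ACGTG or its reverse complement was found in Nrg4 at -222, in Bmp8b at -112 and before a second, internal start of Vegfa, which also held CGTCA. The windows of Apln, Vegfb, Slit2 and the main Vegfa start held none.

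Angpt2, Igf1 and Fgf2, from a list of other secreted batokines and vessel factors, had larger fold changes with isoproterenol than any of the 7 tested genes. Of 23 listed, 15 were tested, and 1 rose and 2 fell with isoproterenol by edgeR, beside 2.02% and 1.18% of all genes. Angpt2, a ligand of the endothelial receptor TEK, rose from 3.25 ± 1.07 to 8.49 ± 3.55 CPM (log2 fold change 1.38, SE 0.27, adjusted p = 0.00617). Igf1, a growth hormone-dependent factor, fell from 45.1 ± 8.54 to 16.8 ± 5.87 CPM (log2 fold change -1.44, SE 0.19, adjusted p = 0.000338). Fgf2, a growth factor for endothelial cells and preadipocytes, fell from 10.6 ± 2.45 to 4.41 ± 0.512 CPM (log2 fold change -1.26, SE 0.13, adjusted p = 2.27e-05). With the block 6 of the 15 passed, by the addition of Angpt1 (-0.64), Fst (0.75) and Il6 (1.48), beside 7% of all genes, and DESeq2 also called 6, beside 4.21%. The median over the 15 was 0.14.

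The shares of all genes for isoproterenol were 3.2% by edgeR, 15% at an unadjusted p below 0.05, 4.21% by DESeq2 and 7% with the block. The lists that follow are read beside them. No receptor passed of 15 tested (26 listed), with 3 at an unadjusted p below 0.05 and 0 by DESeq2, and the median over the 15 was -0.14. With the block 1 passed, Acvr1c (log2 fold change -0.61, adjusted p = 0.00601, edgeR). Klb, the FGF21 coreceptor, was at 125 ± 11.4 CPM without and 108 ± 8.75 CPM with isoproterenol (log2 fold change -0.20, SE 0.07, adjusted p = 0.147, edgeR). None of 8 tested paralogues of the 9 genes passed (18 listed), with 4 at an unadjusted p below 0.05, 0 by DESeq2, 0 with the block and a median of -0.23. Metrn, the paralogue of Metrnl, was looked up after its values were seen: it was at 25.2 ± 3.80 and 32.0 ± 3.97 CPM (log2 fold change 0.36, SE 0.08, adjusted p = 0.0171, edgeR) and stayed inside the size limit.

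In the lipoprotein lipase system, 0 of 5 tested genes passed (8 listed), with 1 at an unadjusted p below 0.05 and 1 by DESeq2. With the block 1 passed, Apoc3, an inhibitor of the lipase (log2 fold change -0.88, adjusted p = 5.02e-08, edgeR). Lpl, the enzyme that ANGPTL4 inhibits, had a log2 change of 0.00044 (SE 0.09, 95% interval -0.20 to 0.20). Of 12 regulators tested, only Ppargc1a, a coactivator of thermogenic genes, rose (52.2 ± 6.60 to 77.5 ± 12.1 CPM, log2 fold change 0.56, SE 0.09, adjusted p = 0.00147, edgeR). The transcription factor genes Atf4 (0.036, adjusted p = 0.955) and Hif1a (0.14, adjusted p = 0.697), named for the motifs searched, did not pass.

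Some markers of the adipocytes themselves and of other cell types passed with stimulation, beside 3.2% of all genes (2.02% upwards and 1.18% downwards). Their part in these results was not tested. The summed level of the 10 adipocyte markers was 24700 to 32100 CPM in unstimulated and 19500 to 24700 CPM in stimulated ctrlA libraries, 22600 to 28600 and 17400 to 24500 with LNA1, and 20800 to 27700 and 17300 to 21000 with LNA2. Their median log2 fold change was -0.32, and 1 of 10 passed, Adipoq, the gene of adiponectin, which fell (-0.71, adjusted p = 0.00729, edgeR). Of 8 tested brown adipocyte markers, 3 rose (Ucp1, Cidea and Ppargc1a) and the median was 0.23. The 6 macrophage markers summed to 10.4 to 14.3 CPM in unstimulated and 14.7 to 29.2 CPM in stimulated ctrlA libraries, 12.9 to 16.9 and 23.2 to 33.8 with LNA1, and 15.9 to 30.8 and 31.6 to 48.7 with LNA2. Of 3 tested, Cd68 (log2 fold change 0.90, adjusted p = 0.00618, edgeR) and Cd14 (1.28, adjusted p = 0.00398) rose, while the defining markers Ptprc and Adgre1 had at most 3 and 2 counts in any library. Of 4 tested preadipocyte markers Ly6a passed, with a rise of 1.58 (adjusted p = 0.0416, edgeR), whereas the values of Pdgfra, Cd34 and Pi16 were -0.029, -0.18 and -0.26 and the median of the 4 was -0.10. In bulk RNA, fewer cells of a type and less RNA per cell cannot be told apart.

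The LNA comparisons asked whether LNAs directed against Gm15551 altered these genes, and none of the 7 passed in any of them without the block. That fit counts the spread between replicate numbers as error, so it can miss small differences. For LNA1 against ctrlA, averaged over stimulation (6 libraries against 6), 0.442% of all genes passed, for LNA2 1.42% and for LNA2 against LNA1 0.923%. None of the 7 had an unadjusted p below 0.05 in these comparisons, which 6.01%, 10.6% and 9.2% of all genes had, and DESeq2 called none. Within unstimulated and stimulated cells the shares that passed were 0% and 0.0134% for LNA1 and 0.194% and 0.207% for LNA2. None of the 7 passed there without the block. With the block, Fgf21 passed for LNA1 in unstimulated cells (log2 fold change -0.52, adjusted p = 0.0353, edgeR), beside 0.602% of all genes. Both LNAs share the ctrlA libraries, so their values are given side by side. The log2 fold changes with LNA1 and LNA2 were -0.34 and -0.078 for Fgf21, 0.085 and -0.24 for Apln, -0.14 and -0.22 for Angptl4, 0.022 and -0.18 for Nrg4, and 0.18 and 0.012 for Metrnl. For Vegfa they were -0.023 and -0.072, and for Vegfb -0.10 and -0.12. Single libraries moved several of these values without a gene passing. Apln with LNA1 was 0.011 without stimulated ctrlA library 2 and 0.20 without stimulated LNA1 library 2, and with LNA2 it was -0.15 without unstimulated LNA2 library 2. Metrnl with LNA1 was 0.10 without unstimulated LNA1 library 4, and Angptl4 with LNA1 was -0.085 without stimulated ctrlA library 2 or stimulated LNA1 library 4.

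Fgf21 was the gene with the largest difference under LNA1. Its mean was 125 CPM with ctrlA, 100 with LNA1 and 119 with LNA2, and the LNA1 library was below its ctrlA partner in 6 of 6 pairs, although stimulated libraries 2 were level (log2 ratio -0.00024). The log2 fold change was -0.34 (SE 0.24, 95% interval -0.86 to 0.17, adjusted p = 1.00, edgeR). It was -0.52 without the unstimulated LNA1 library 2, and -0.22 without the unstimulated ctrlA library 2 or the unstimulated LNA1 library 3. With the block it was -0.37 (adjusted p = 0.00807), inside the size limit. In unstimulated cells alone it was -0.50 (SE 0.34; -0.84 to -0.26 with 1 library left out), where 0 genes passed in all and 427 (2.86%) had an unadjusted p below 0.05. There the block gave -0.52 and passed (adjusted p = 0.0353), beside 0.602% of all genes.

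Of the 7 genes, 5 had their lowest mean with LNA2, without passing the limits: Angptl4, Apln, Nrg4, Vegfa (423, 416 and 403 CPM with ctrlA, LNA1 and LNA2) and Vegfb (111, 104 and 102 CPM). The share of all genes lowest with LNA2 was not counted. For Vegfb, stimulated cells were lower with LNA1 than with LNA2 (99.1 and 102 CPM). Unstimulated cells had 411 CPM of Vegfa with LNA1 and 412 with LNA2. Angptl4 had 401, 350 and 326 CPM in unstimulated ctrlA libraries and 345, 297 and 284 in stimulated ones. With LNA1 it had 356, 300 and 302 CPM, then 319, 299 and 243, and with LNA2 329, 266 and 281, then 309, 268 and 267. Each LNA2 library was below its ctrlA partner, in 6 of 6 pairs, and the means were 334 ± 42.0 CPM with ctrlA, 303 ± 36.8 with LNA1 and 287 ± 26.2 with LNA2 (SD, n = 6 each). For LNA2 the log2 fold change was -0.22 (SE 0.11, 95% interval -0.44 to 0.0096, adjusted p = 0.504, edgeR) and -0.21 with the block (adjusted p = 0.00415).

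Apln had means of 74.3 CPM with ctrlA, 79.1 with LNA1 and 63.0 with LNA2. Against ctrlA the LNA2 log2 fold change was -0.24 (SE 0.18, adjusted p = 0.787, edgeR; with the block -0.23, adjusted p = 0.00631), and against LNA1 it was -0.33 (SE 0.18, adjusted p = 0.68; with the block -0.31, adjusted p = 0.00121), with LNA2 lower in 6 of 6 pairs in both. Nrg4 was lower with LNA2 than with ctrlA in 5 of 6 pairs (log2 fold change -0.18, adjusted p = 0.773, edgeR; with the block adjusted p = 0.0211). None of these reached the size limit. With the block and no size limit, 3 of the 7 genes passed for LNA2 against ctrlA, beside 20.6% of all tested genes, 3 for LNA2 against LNA1, beside 15.4%, and 1 for LNA1 against ctrlA (Fgf21), beside 7.8%.

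Between LNA2 and LNA1, 0.923% of all genes passed without the block. Of the 15 tested other secreted factors, the gene that passed there was Gdf15, a stress-induced hormone. It was at 55.2 ± 7.27 CPM with LNA1 and 92.5 ± 20.4 CPM with LNA2 (log2 fold change 0.74 for LNA2 against LNA1, SE 0.16, adjusted p = 0.0399, edgeR), and at 75.9 CPM with ctrlA. With the block 3 of the 15 passed in this comparison, Gdf15, Angpt1 (-0.68) and Fst (-0.87), beside 4.11% of all genes, and Fst also passed for LNA2 against ctrlA (-0.67), beside 5.53%. Of 4 tested preadipocyte markers 1 passed for each LNA against ctrlA, Pdgfra, beside 0.442% of all genes for LNA1 and 1.42% for LNA2. It rose by 0.89 for LNA1 (adjusted p = 0.00744, edgeR) and 0.71 for LNA2 (adjusted p = 0.0121, edgeR) on the log2 scale. The values of Ly6a, Pi16 and Cd34 were 0.15, 0.22 and -0.34 for LNA1 and 0.57, 0.49 and -0.67 for LNA2, and the medians of the 4 were 0.18 and 0.53. With the block Ly6a also passed for LNA2 (0.66, adjusted p = 0.00549, edgeR). The macrophage markers summed to 15.9 to 30.8 CPM with LNA2 against 10.4 to 14.3 CPM with ctrlA in unstimulated cells, and to 31.6 to 48.7 against 14.7 to 29.2 CPM in stimulated cells, without overlap in either. Of all tested genes, taken singly, 4.84% and 4.88% were higher without overlap in these comparisons. Against ctrlA, averaged over stimulation, the median of the 3 tested macrophage markers was 0.88 for LNA2 and 0.13 for LNA1. Without the block none of the 3 passed for LNA2 by edgeR, with 2 at an unadjusted p below 0.05 (10.6% of all genes) and 1 by DESeq2 (2.26%). With the block all 3 passed, Cd68 (0.88), Cd14 (0.57) and Csf1r (1.71), beside the same 5.53%. The defining markers Ptprc and Adgre1 had too few counts to be tested. Of the brown adipocyte markers 0 of 8 passed for LNA2, by edgeR with or without the block or by DESeq2, with 3 at an unadjusted p below 0.05, and their median was -0.31 for LNA2 and -0.13 for LNA1. The 9 listed summed to 484 to 629 CPM in unstimulated and 639 to 724 CPM in stimulated ctrlA libraries, and to 380 to 564 and 471 to 607 CPM with LNA2, and the sums of stimulated ctrlA and LNA2 libraries did not overlap. Taken singly, 4.11% of all tested genes were lower without overlap there. The part of these markers in the levels of the 7 genes with LNA2 was not tested.

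No interaction of LNA and isoproterenol passed for any of the 7 genes, and by edgeR none of the 14949 tested genes passed (0%). At an unadjusted p below 0.05 there were 105 genes (0.702%) for LNA1 and 116 (0.776%) for LNA2, none of them among the 7, and DESeq2 called 0 and 2 genes (0.0134%), none of the 7. These 0.702% and 0.776% lie below the share of 0.05 that such a limit gives without any effect. Without the block, the spread between replicate numbers counts as error, so the absence of calls does not show the absence of a difference. The interaction of Metrnl was 0.14 for LNA1 (95% interval -0.46 to 0.74) and 0.042 for LNA2 (-0.56 to 0.64), and that of Fgf21 was 0.33 (-0.70 to 1.35) and 0.051 (-0.98 to 1.08). For Apln the values were -0.14 (-0.90 to 0.63) and -0.15 (-0.91 to 0.62). With 1 library left out, the LNA1 interaction of Fgf21 was between 0.056 (without stimulated LNA1 library 2) and 0.65 (without unstimulated LNA1 library 2), and that of Metrnl between 0.00047 (without unstimulated ctrlA library 4) and 0.29 (without unstimulated LNA1 library 4). The intervals of Fgf21 and Apln from all libraries include differences as large as the responses of the genes. With the block the interactions did not pass either, and the intervals were -0.021 to 0.64 and -0.26 to 0.39 for Fgf21, -0.37 to 0.087 and -0.37 to 0.096 for Apln, and -0.22 to 0.51 and -0.31 to 0.41 for Metrnl, each for LNA1 and then LNA2. When the 6 groups were tested jointly, with 0.001 as the limit of the adjusted p, 68 genes (0.455%) and none of the 7 passed by edgeR. Metrnl had an adjusted p of 0.0229 in this edgeR test. DESeq2 called Metrnl (adjusted p = 7.81e-06), beside 3.72% of all genes. With the block, Metrnl, Apln and Fgf21 passed, beside 8.93% of all genes.

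The replicate number was the leading source of variation in 6 of the 7 genes. Numbers 2, 3 and 4 took 94.4% of the variance of log2 CPM in Vegfa and 96.3% in Vegfb, where stimulation took 0.305% and 0.512%. Libraries 2, 3 and 4 of Vegfa had 313, 425 and 566 CPM in unstimulated and 330, 389 and 515 in stimulated ctrlA cells, 301, 428 and 502 and then 304, 400 and 563 with LNA1, and 294, 408 and 534 and then 293, 341 and 546 with LNA2. Those of Vegfb had 65.9, 146 and 136 CPM and then 64.3, 119 and 136 with ctrlA, 62.0, 133 and 131 and then 59.6, 109 and 129 with LNA1, and 58.3, 120 and 129 and then 66.4, 114 and 125 with LNA2. In each of the 6 groups library 2 was the lowest for both genes. The libraries numbered 2 held 306 ± 14.1 CPM of Vegfa (SD, n = 6) and the remaining 12 held 468 ± 77.7 CPM, and for Vegfb the values were 62.8 ± 3.36 and 127 ± 10.3 CPM. Fgf21 went the other way, at 149 ± 19.1 CPM in libraries numbered 2 and 97.5 ± 26.2 CPM in the rest. These are the libraries with more mitochondrial and ribosomal RNA counts, and the part of that in these levels was not tested.

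For Metrnl stimulation took 75.5% of the variance and the replicate number 13.7%. In Fgf21, Apln, Angptl4 and Nrg4 stimulation took 23.9, 22.1, 16.8 and 12.5%, and the LNA took 11.6, 14.7, 26.0 and 18.7%.

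**Figure D5:**
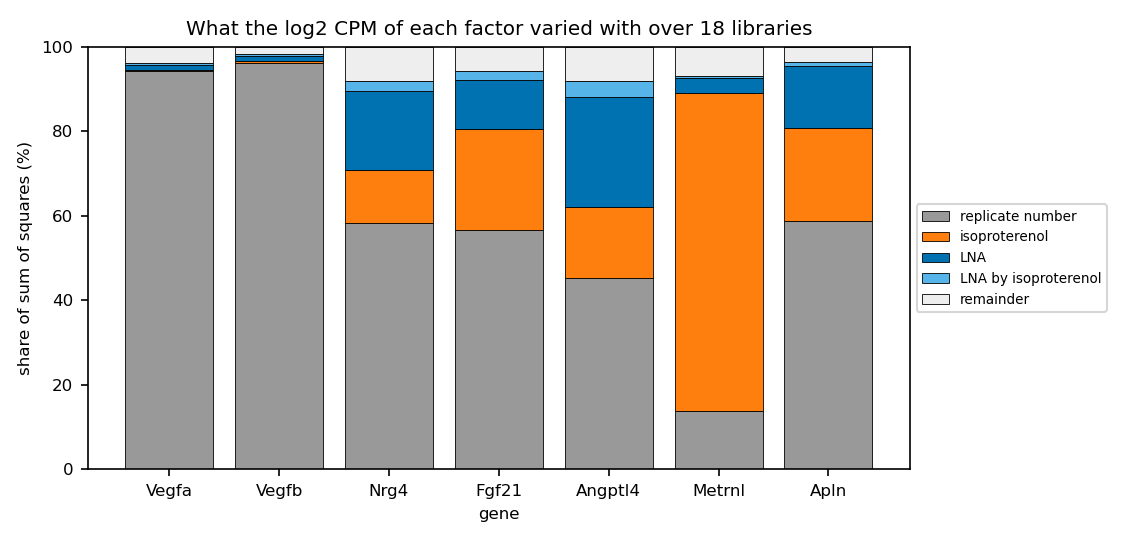
Share of the variance of log2 CPM over the 18 libraries taken by replicate number, stimulation, LNA, their interaction and the rest, as a percent per gene. The replicate number takes 94.4% for Vegfa and 96.3% for Vegfb, and stimulation takes 75.5% for Metrnl.

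Patterns across the 18 libraries were compared after removing the mean of each replicate number, as a description over libraries that share their culture conditions. Of 13164 genes, those closest to Metrnl were St3gal1 (r = 0.98), Plekhg4 (r = 0.97) and Smtn (r = 0.97). Between the tested factors, Metrnl and Fgf21 had r = 0.63, Metrnl and Apln -0.62, Fgf21 and Apln -0.76, and Angptl4 and Apln 0.62.

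Bmp8b, a BMP that enhances the response of brown fat to noradrenaline, was counted 25 times in all 18 libraries. Replicates 2, 3 and 4 had 0, 2 and 0 counts in unstimulated and 0, 1 and 4 in stimulated ctrlA cells, 0, 0 and 2 and then 1, 1 and 2 with LNA1, and 2, 1 and 4 and then 2, 2 and 1 with LNA2. The 14 counts with isoproterenol against 11 without (0.135 and 0.0958 CPM) gave p = 0.524 in an exact two-sided permutation test within LNAs. For LNA1 and LNA2 against ctrlA the exact p was 0.92 and 0.495.

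Slit2, a guidance protein of which a cleaved fragment has been described as a batokine, was counted 23 times. It had 2, 4 and 3 counts in unstimulated and 0, 2 and 1 in stimulated ctrlA cells, 0, 1 and 0 and then 0, 3 and 1 with LNA1, and 1, 1 and 2 and then 1, 1 and 0 with LNA2. The exact two-sided permutation p was 0.365 for isoproterenol, 0.18 for LNA1 and 0.12 for LNA2. In unstimulated cells the LNA1 libraries of Slit2 lay below the ctrlA libraries without overlap. Of all tested genes, 2.86% were lower without overlap in that comparison. With 1 library left out, the lowest exact permutation p for LNA2 was 0.04 for Bmp8b and 0.02 for Slit2. Both genes are mostly at or under the floor of 3 counts, and with all libraries no exact p was below 0.05.

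In the genome (GRCm38), Vegfa lies at chr17:46016993-46032369, Vegfb at chr19:6982473-6987651, Nrg4 at chr9:55220222-55326844, Fgf21 at chr7:45613886-45615490, Angptl4 at chr17:33773750-33781830 and Apln at chrX:48025146-48034853, all on the minus strand. Bmp8b at chr4:123105165-123132099, Metrnl at chr11:121701544-121716306 and Slit2 at chr5:47983138-48307733 are on the plus strand. All are protein-coding. Exons of Nrg4 overlap Fbxo22 on the opposite strand over 368 bases and Gm15625 over 177 bases. Those of Bmp8b overlap Gm17244 over 339 bases and Ppie over 133 bases, and since the use of strand in counting was not stated, reads there cannot be told apart.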

How the data were processed

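Polyadenylated RNA of 18 libraries was sequenced as read pairs. After trimming by cutadapt, the authors ran salmon on the Gencode M22 transcripts (GRCm38) and deposited expected counts per gene, so that shared sequence makes counts of near-identical genes uncertain. The counts were rounded to whole numbers before use here. Versions of these tools were not given in the sources used here.

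The tests used edgeR 4.0.16 under R 4.3.3. Genes passing filterByExpr (minimum count 10, minimum total 15) were scaled by TMM and fitted with 1 term per group over all 18 libraries, with quasi-likelihood tests and Benjamini-Hochberg adjustment over 14949 genes. A gene was called at an adjusted p below 0.05 and an absolute log2 fold change above 0.5; interactions were called at 0.05 and the joint test at 0.001. Bmp8b and Slit2, below the filter, were compared by exact permutation of CPM. DESeq2 1.42.0, other scalings and filters, omitted libraries and the replicate block were alternatives, and scripts were tested on simulated counts. Named were the 9 genes, called genes of the lists, receptors or enzymes the genes act on, and the 3 genes closest in pattern to a called gene. Some uncalled genes were also named, such as Atf4, Hif1a, Metrn, Cd34 and Pi16, and the low-count markers Ptprc and Adgre1.

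The numbers 2, 3 and 4 recur in each group. Same-numbered libraries deviated together from their group means (45 correlations, 0.363 to 0.860, median 0.625), so the numbers were taken to pair the libraries, and the value with the number as a block is given where it changes a call. Libraries numbered 2 stood far from the others, so numbers 3 and 4 both deviate away from them. The correlations therefore cannot show that 3 and 4 are paired, which rests on the labels. Differently numbered libraries were not correlated. Within groups, chi-square per degree of freedom was 4.44 to 189, and 0 pairs of libraries were identical. In unstimulated ctrlA cells it was 161 between libraries 2 and 3 and 5.67 between 3 and 4. Floors and p-values cover counting error and spread between these libraries only. Coordinates are from GENCODE M21. The genes and lists were chosen with earlier results of these data known.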

Additional observations from a re-analysis of the deposited data

How the results depend on the processing

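The count of called genes among the 7 tested did not change, in any comparison, in any of the 18 fits that left out 1 library. Metrnl kept its rise with isoproterenol in each of them, with log2 fold changes from 0.69 to 0.80 and adjusted p from 0.00117 to 0.00451 (edgeR). Without all libraries numbered 3 the number called with isoproterenol was 0 of 7 (Metrnl 0.62, adjusted p = 0.226), and without those numbered 2 it was 2 (Fgf21 0.53, adjusted p = 0.0346); the cause was not tested. Over all genes the isoproterenol calls were 479, against 727 without number 2, 92 without number 3, 113 without number 4 and 1046 with the block. For LNA1 and LNA2 against ctrlA they were 66 and 213, against 364 and 826 with the block, 133 and 338 with DESeq2, 180 and 738 without number 2, and 0 and 0 without number 3 or number 4. For LNA2 against LNA1 they were 138, against 615 with the block, 232 with DESeq2, 443 without number 2, 70 with only the groups compared and 0 without number 3 or number 4. With 1 library left out the lowest counts were 32, 113 and 73 for these comparisons in turn, and for LNA2 against ctrlA with only the groups compared the count was 125. Within LNAs the isoproterenol calls were 73, 105 and 59 for ctrlA, LNA1 and LNA2, against 603, 753 and 635 with the block, 171, 229 and 153 with DESeq2, 197, 324 and 199 without number 2, 3, 7 and 0 without number 3, 9, 12 and 0 without number 4, and 14, 20 and 0 with only the groups compared.

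With the replicate block, the number called was 1 for isoproterenol with ctrlA (Metrnl 0.68), 2 with LNA1 (Metrnl 0.82, Fgf21 0.64), 1 with LNA2 (Metrnl 0.73), 1 for LNA1 in unstimulated cells (Fgf21 -0.52) and 3 in the joint test, and the averaged counts were as without it. The block with no size limit was added after seeing the data. It gave 5 for isoproterenol averaged, 1, 3 and 3 with ctrlA, LNA1 and LNA2 (7.88%, 9.84% and 9.55% of all genes), 1 for LNA1 and 3 for LNA2 against ctrlA, 3 for LNA2 against LNA1, 1 for LNA1 and 1 for LNA2 in unstimulated cells (0.977% and 4.8%) and 2 for LNA2 in stimulated cells (14.6%). DESeq2 called 1 of the 7, Metrnl, in LNA1 cells (adjusted p = 0.00872), in LNA2 cells (adjusted p = 0.0465) and in the joint test. Without number 2 it was 1 in LNA1 cells (Metrnl, adjusted p = 0.0451).

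Directions that turned were of uncalled values near 0: Vegfa with isoproterenol without number 3 (0.025), Vegfa with LNA1 without number 2 (0.025), Nrg4 with LNA1 with no filter (-0.012) and without number 2 (-0.022), Metrnl with LNA2 with no filter (-0.0029) and without number 3 (-0.076), and the LNA2 interactions of Fgf21 without number 4 (-0.051) and Metrnl without number 3 (-0.094). Leaving out 1 library gave ranges across 0 for Vegfa with isoproterenol (-0.14 to 0.044), with LNA1 (-0.16 to 0.092), with LNA2 (-0.23 to 0.045) and between LNAs (-0.20 to 0.084), for Vegfb (-0.23 to 0.046, -0.25 to 0.040 and -0.15 to 0.14 for LNA1, LNA2 and between LNAs), for Nrg4 with LNA1 (-0.072 to 0.072), and for Fgf21 (-0.24 to 0.044) and Metrnl (-0.073 to 0.080) with LNA2. The interactions ranged from -0.34 to 0.057 for Apln with LNA1, and with LNA2 from -0.18 to 0.38 for Fgf21, -0.10 to 0.21 for Metrnl and -0.32 to 0.022 for Apln. Bmp8b with LNA1 ranged from -0.0387 to 0.0455 CPM. Of Bmp8b and Slit2, 0 to 1 had an exact p below 0.05 when 1 library was left out, with the lowest p at 0.04 for Bmp8b (0.0291 to 0.115 CPM) and 0.02 for Slit2 (-0.0975 to -0.0399 CPM), both for LNA2. Bmp8b and Slit2 each had 0 to 4 counts per library, and with all libraries no exact p was below 0.05.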
